A study of Mus musculus with 6 samples.

Results

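Vip, Adm and the genes of their relatives and receptors were examined as a set of 10 genes among the 30702 genes measured in cultured mouse podocytes. The set holds the peptide genes Vip, Adcyap1 and Adm, the receptor genes Vipr1, Vipr2, Adcyap1r1 and Calcrl, and the receptor activity-modifying protein genes Ramp1, Ramp2 and Ramp3. It was drawn up by name as vasodilator peptides with their receptors, and was selected on the log2 differences between the 2 lines compared here, in which Vip and Adm stood among the largest. Each of the 10 genes had a single probe set carrying only its symbol, and all 10 were measured.

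Podocytes are the epithelial cells whose foot processes cover the glomerular capillaries. A conditionally immortalized mouse line carrying an NCK1/2 knockout was compared with a conditionally immortalized wildtype line. Nck1 and Nck2 encode adaptors between tyrosine-phosphorylated receptors and the actin cytoskeleton. Both were grown on type I collagen and had been differentiating for 10 days, and each line was represented by 3 arrays of total RNA described as independent replicates. The labels name no animal age, strain or allele. With 1 line per genotype, genotype and line cannot be told apart, and p-values measure the spread between cultures of a line.

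Vasoactive intestinal peptide (VIP), PACAP and adrenomedullin are secreted peptides that relax blood vessels. They act on class B G protein-coupled receptors, which mainly raise cyclic AMP through the stimulatory G protein. Vipr1 and Vipr2 encode receptors shared by VIP and PACAP, and Adcyap1r1 encodes the PACAP-preferring receptor. Adrenomedullin signals through the product of Calcrl, whose ligand is set by the partner in the membrane. With RAMP1 it forms the receptor for calcitonin gene-related peptide, and with RAMP2 or RAMP3 it forms adrenomedullin receptors. In the kidney these peptides are known for effects on renal blood flow, and Adm is a gene known to respond to hypoxia.

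The promoters of Vip and Adm are shown because these were the members that stood apart in the knockout line. Each window runs from 250 bases before to 50 bases after the annotated transcription start (RefSeq, GRCm38.p6) and is written 5′ to 3′ on the gene's own strand. Capitals mark TGACG, the core of the cyclic AMP response element, and TATAA, a core of the TATA box, on either strand.
Vip, chr10:5638968-5639267, plus strand: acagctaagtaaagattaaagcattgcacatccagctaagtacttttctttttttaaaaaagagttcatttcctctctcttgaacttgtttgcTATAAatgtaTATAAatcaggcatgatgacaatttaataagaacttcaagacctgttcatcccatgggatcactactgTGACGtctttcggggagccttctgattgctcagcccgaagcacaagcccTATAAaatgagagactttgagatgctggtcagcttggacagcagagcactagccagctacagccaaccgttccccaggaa
Adm, chr7:110627407-110627706, plus strand: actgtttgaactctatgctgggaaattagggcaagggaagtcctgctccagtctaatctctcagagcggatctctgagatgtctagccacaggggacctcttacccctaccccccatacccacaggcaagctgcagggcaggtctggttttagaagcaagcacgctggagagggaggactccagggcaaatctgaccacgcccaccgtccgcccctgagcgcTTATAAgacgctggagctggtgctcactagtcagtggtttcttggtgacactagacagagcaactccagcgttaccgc

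Both promoters held TATAA close to the start, at -30 in Vip and at -28 and -27 on opposite, overlapping strands in Adm, and Vip held it at -157 and -147 as well. Positions give the leftmost base of the motif on the gene's strand, counted from 0 at the start. TATAA was in 24.87% of 32851 promoter windows. The letters TGACG stood at -79 in Vip and nowhere in the Adm window, against 20.81% of all windows. The full palindrome TGACGTCA, the hypoxia response core in its ACGTG form and the AP-1 letters TGANTCA were in neither window. All windows held them at 1.79%, 19.62% and 7.808%. The GCGTG form of the hypoxia core was not searched for. The Adm window holds it on the opposite strand, where it reads cacgc as printed. TGACG overlaps the palindrome where that is present.

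TGACG was found for 4 of the 9 members with a promoter window. Ramp2 had none. The sites are shown with the flanking bases, read on the strand where the motif reads TGACG, since the Vip and Adcyap1 sites are alike although these genes had different values.
Vip, starting at -79: atcactactgTGACGtctttcgggg
Adcyap1, starting at -91: actaggatgcTGACGtcttttactg
Vipr1, on the opposite strand at -13: ggggctcgtcTGACGggcggcgggg
Ramp1, on the opposite strand at 10: cacctcgctcTGACGgctgggttcc
The Vip and Adcyap1 sites shared an unbroken run of 10 bases, tgacgtcttt. That run includes the TGACG by which both sites were found, and how often other TGACG sites share the rest was not counted. Adcyap1 has 2 annotated starts, whose windows overlap and hold the same site.

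Vip and Adm had high signal on every knockout array and low signal on every wildtype array, while the 8 other members had both group means at levels that background probe sets also reach, as defined with their values below. Of the 10 members, 2 were called higher and 0 lower in the fit over all genes (limma, Benjamini-Hochberg adjusted p under 0.05). Over all genes 12.0% were called, 5.05% higher and 6.9% lower, and 0.928% were called higher with a log2 difference of at least 1. The members were chosen with this contrast known, so their values are given as a description with no test and nothing is read from the count.

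Vip, on chromosome 10, had log2 intensities of 11.57, 11.64 and 11.52 in the knockout line, against 6.70, 6.05 and 6.15 in the wildtype line. All 3 knockout arrays lay far above all 3 wildtype arrays, and wildtype replicate 1 was the highest of its group. The log2 difference, knockout minus wildtype, was 5.28 (limma SE 0.17, 95% interval 4.87 to 5.69), or 38.9-fold (29.3 to 51.5). It ranked 1 from the top among the 30702 log2 differences.

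Adm, on chromosome 7, had log2 intensities of 11.07, 10.95 and 10.88 in the knockout line, against 6.59, 6.19 and 6.62 in the wildtype line. The groups again did not overlap, and wildtype replicate 2 was the lowest of all. The log2 difference was 4.50 (SE 0.13, 95% interval 4.20 to 4.80), or 22.6-fold (18.3 to 27.9), and it ranked 5 from the top.

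The array carries 23 background probe sets, whose means ran from 2.33 to 7.78 log2 units. Group means that do not exceed the highest of these are called within the background range here, which does not show that a gene is silent. The median of the background means was 4.48, and 61.3% of all genes had both group means within this wide range, so lying within it is common on this array. The knockout means of Vip and Adm lay 3.80 and 3.19 log2 units above that limit. Their wildtype means, 6.30 ± 0.35 and 6.47 ± 0.24 (SD, n = 3 each), lay below it, so both folds were taken against a level not separated from background. In RNA from a whole culture, a change in the number of cells making a transcript and a change in the amount per cell cannot be told apart.

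**Figure D1:**
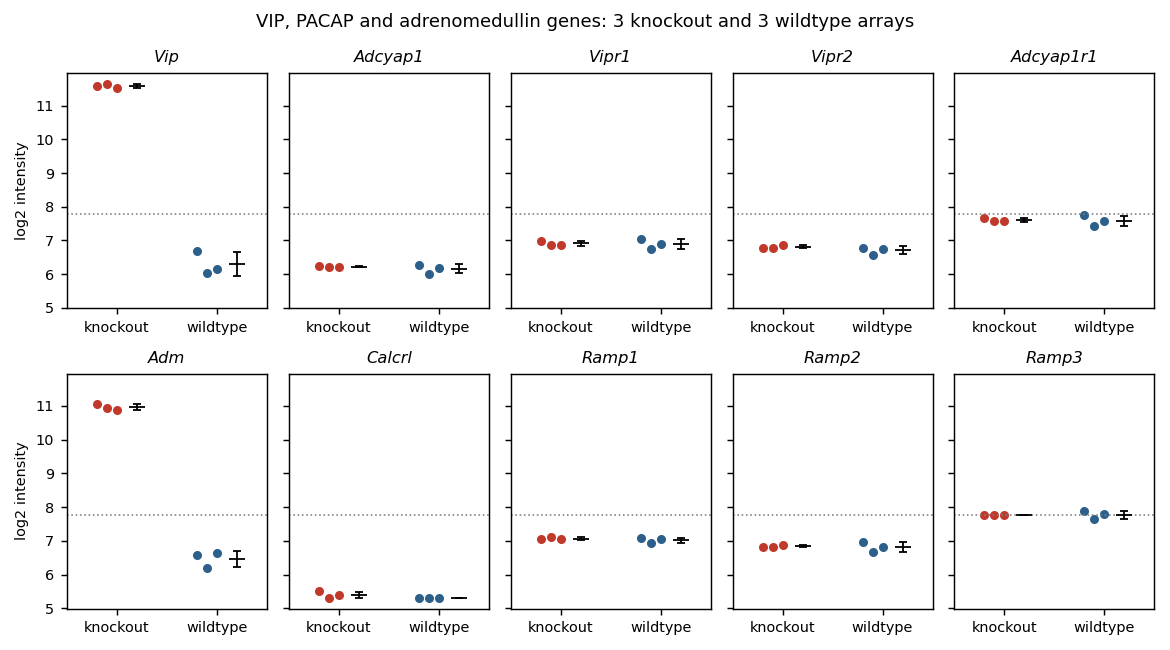
Log2 intensity (vertical axis) of the 10 members on 3 knockout (red) and 3 wildtype (blue) arrays; black marks are the mean and SD of each group, and the dotted line at 7.78 is the highest mean of the background probe sets. Vip and Adm lie above the line in knockout only, and the other 8 genes have group means below it in both lines.

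The 3 receptor genes of the VIP and PACAP system had both group means within the background range. Vipr1 had values of 6.99, 6.87 and 6.87 in knockout, against 7.05, 6.73 and 6.91 in wildtype. Vipr2 had values of 6.79, 6.79 and 6.87 in knockout, against 6.79, 6.58 and 6.76 in wildtype. In both genes the groups overlapped. Their log2 differences were 0.01 (95% interval -0.20 to 0.22) and 0.11 (-0.06 to 0.27). For Adcyap1r1 the difference was 0.03 (-0.18 to 0.23), with means of 7.62 ± 0.06 in knockout and 7.59 ± 0.15 in wildtype. Adcyap1, the gene of PACAP and a close relative of Vip, averaged 6.23 ± 0.02 in knockout and 6.16 ± 0.13 in wildtype, a difference of 0.06 (-0.11 to 0.24).

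The adrenomedullin receptor genes were likewise within the background range. Calcrl, the receptor itself, had values of 5.50, 5.31 and 5.38 in knockout, against 5.31, 5.31 and 5.31 in wildtype. The 3 wildtype values were identical, as the fitting step behind these data can give, so their SD of 0 is not a replicate error. The log2 difference was 0.09 (-0.06 to 0.23). Ramp1 differed by 0.05 (-0.09 to 0.19), Ramp2 by 0.02 (-0.17 to 0.22) and Ramp3 by -0.01 (-0.18 to 0.15). Ramp3 had means of 7.75 ± 0.002 in knockout and 7.77 ± 0.12 in wildtype, just under the limit of 7.78.

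Across these 8 members the log2 differences ran from -0.01 to 0.11, and the 95% intervals reached from -0.20 to 0.27. The upper end corresponds to 1.21-fold and the lower end to 0.872-fold on this scale, which probe background compresses for dim genes. Wildtype replicate 1 was the highest and wildtype replicate 2 the lowest of the wildtype arrays in 7 of the 8, an order also seen in 37.7% of all genes. Most of the other secretin-family genes and endothelial markers read below, nearly all within the background range too, showed the same order. The groups did not overlap for 2 of the 10 members, Vip and Adm, where 27.4% of all genes did not overlap. The median log2 difference was 0.06 over the 10 members and 0.01 over all genes.

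The genes whose values ran most like Vip across the arrays were sought by the root mean square distance between log2 profiles over the 6 arrays, each centred on its own mean. The closest were the Y-linked Uty at 0.36, the stromelysin gene Mmp10 at 0.37 and Adm itself at 0.43 log2 units. For Adm the closest were Uty at 0.13, Mmp10 at 0.21 and the inflammatory caspase gene Casp1 at 0.21, with Vip in place 10. Mmp10 and Casp1 both lie on chromosome 9. These distances follow mainly the step between the lines, which all these genes share, and were taken as a description. Uty averaged 9.90 ± 0.07 in knockout and 5.21 ± 0.14 in wildtype, and the X-inactivation RNA Xist averaged 6.01 ± 0.05 in knockout and 12.19 ± 0.04 in wildtype. Uty thus lay above the background range only in the knockout line and Xist only in the wildtype line, as in a male and a female line. The lines were therefore not matched in sex, and the part of this difference between the lines in the values of Vip and Adm was not tested.

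Facts on the whole series bear on these values. Array medians over genes lay between 7.08 and 7.22, and arrays of the same line correlated at 0.993 to 0.997 across genes, against 0.978 to 0.985 for arrays of different lines (Pearson). Nck1 was lower in knockout (8.12 ± 0.06 against 8.63 ± 0.10 in wildtype, limma adjusted p = 0.00391), and Nck2 differed by -0.24 without passing (limma adjusted p = 0.0941), which it did with a filter on dim genes (limma adjusted p = 0.0498). The position of these probe sets relative to the deleted parts is not known, and both means of Nck2 lay within the background range. Of 8 podocyte markers measured, none was called by limma (0 at an unadjusted p under 0.05), with a median of 0.0013, and the defining Nphs1 and Wt1 lay within the background range in both lines, as did Tcf21 and Ptpro. Tcf21 differed by -0.09 and Podxl by 0.09.

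Other genes of the 2 peptide families were read next. For this and the lists that follow, the values to set beside them are those of all genes, 12.0% called, a median log2 difference of 0.01 and 61.3% with both group means within the background range. These shares are not matched for signal. A fit of only the genes at or above the median signal called 4154, against 3669 of all genes, so brighter genes were called more often. The lists were also chosen with earlier results of these data known, so nothing is read from a list's share. Of 6 other calcitonin-family and adrenomedullin-binding genes 1 was higher and 1 lower, with a list median of 0.01. Ackr3, an atypical chemokine receptor described in mice as a decoy for adrenomedullin, had values of 7.26, 7.47 and 7.48 in knockout, against 8.42, 9.03 and 8.72 in wildtype. All knockout values lay below all wildtype values, and the log2 difference was -1.32 (SE 0.15, limma adjusted p = 0.00288). The knockout mean was within the background range. The amylin gene Iapp was higher by 0.75 (SE 0.12, limma adjusted p = 0.0103), with both means within that range, a call lost without wildtype replicate 1 (limma adjusted p = 0.0509). Of 19 other secretin-family peptides and class B receptors, none was called by limma (0 at an unadjusted p under 0.05), the median was -0.01, and 18 had both means within the background range. The largest differences there were 0.10 for the secretin receptor gene Sctr and -0.07 for the urocortin gene Ucn.

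Genes that make and trim secreted peptides moved in both directions. Of 15 measured, 1 was higher and 3 lower, with a median of 0.02. Pam encodes the enzyme that amidates the carboxyl end of peptides, a step that VIP and adrenomedullin undergo. It had values of 9.20, 9.18 and 9.11 in knockout, against 8.67, 8.82 and 8.76 in wildtype. The groups did not overlap, and the log2 difference was 0.41 (SE 0.06, limma adjusted p = 0.00524). The proprotein convertase gene Pcsk6 was lower by a log2 difference of -1.16 (SE 0.07, limma adjusted p = 0.000217), with the knockout mean within the background range. Cpd and Cpe, carboxypeptidases that remove basic residues after cleavage, differed by -0.54 (limma adjusted p = 0.000641) and -0.22 (limma adjusted p = 0.0315). The call of Cpe was lost without any 1 of 5 arrays and with the replicate block (limma adjusted p = 0.0669). The granin genes Chga, Chgb, Scg2 and Scg3 lay within the background range in both lines.

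Among 10 peptide-degrading enzymes 2 were lower and 1 higher, with a median of -0.005. Mme encodes neprilysin, a surface peptidase of podocytes that cleaves natriuretic peptides, adrenomedullin and VIP. It had values of 9.37, 9.42 and 9.25 in knockout, against 12.26, 12.42 and 12.38 in wildtype. The groups lay far apart, both above the background range, at a log2 difference of -3.00 (SE 0.07, limma adjusted p = 6.11e-06). Enpep, the aminopeptidase A gene that acts on angiotensin II, averaged 7.45 ± 0.05 in knockout and 8.95 ± 0.20 in wildtype, a difference of -1.50 (limma adjusted p = 0.000326). The knockout mean of Enpep was within the background range. The membrane carboxypeptidase gene Cpm was higher by 0.28 at the edge of the threshold (limma adjusted p = 0.0486), a dim gene in both lines, and the call was lost in 8 alternative settings. Ece1, Ide and Thop1 were measured above that range and were not called, at differences from -0.07 to 0.08.

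**Figure D2:**
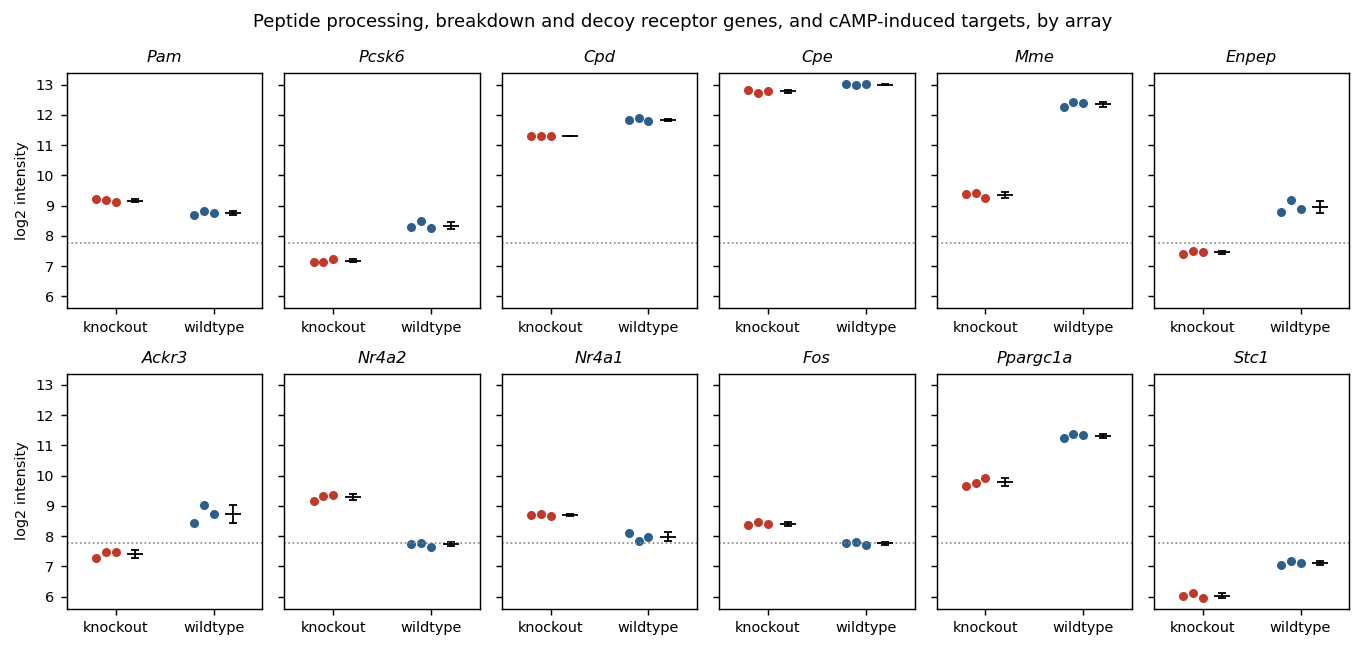
Log2 intensity (vertical axis) of genes of peptide processing (Pam, Pcsk6, Cpd, Cpe), breakdown (Mme, Enpep) and the decoy receptor (Ackr3), and of cyclic AMP-induced targets (Nr4a2, Nr4a1, Fos, Ppargc1a, Stc1), on 3 knockout (red) and 3 wildtype (blue) arrays with the mean and SD; the dotted line at 7.78 is the highest background mean. The knockout values of Mme, near 9.3, lie below the wildtype values near 12.4, and those of Pam lie slightly above.

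Downstream of the receptors lies the machinery of cyclic AMP signalling. Its 29 genes covered the stimulatory G protein, adenylyl cyclases, protein kinase A with inhibitors and scaffolds, and the EPAC branch. They also held transcription factors of the CREB family and their coactivators. Of the 29, 0 were higher and 2 lower, 6.9% of the list, with a median of -0.02. At an unadjusted p under 0.05 there were 10 of the 29, where 7094 of the 30702 genes passed it, and the groups did not overlap for 14, where 27.4% of all genes did not. Akap12, a scaffold for protein kinase A, differed by -0.85 (SE 0.08, limma adjusted p = 0.00132). Rapgef3, which encodes the cyclic AMP sensor EPAC1, differed by -0.39 (SE 0.05, limma adjusted p = 0.004). Gnas, the gene of the stimulatory G protein, was not called, at a difference of 0.01 (95% interval -0.09 to 0.10). All its wildtype values and those of knockout replicates 1 and 2 were identical, so, as for Calcrl, the narrow interval does not measure the spread of replicates. The count in this list was 6 after a repeated quantile normalization, 5 after a filter on dim genes and 4 without wildtype replicate 1.

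Phosphodiesterases, which break down cyclic nucleotides, were called in 1 direction. Of 15 measured, 5 were higher and 0 lower, with a median of 0.05. Pde8a averaged 8.86 ± 0.08 in knockout and 8.05 ± 0.18 in wildtype, a log2 difference of 0.81 (SE 0.10, limma adjusted p = 0.00306). Pde3b differed by 0.81 (SE 0.16, limma adjusted p = 0.0211), Pde4b by 0.59 (SE 0.09, limma adjusted p = 0.00625), Pde4a by 0.45 (limma adjusted p = 0.0166) and Pde1a by 0.22 (limma adjusted p = 0.0314). The count was 2 without knockout replicate 1, knockout replicate 2 or wildtype replicate 3, and 3 without wildtype replicate 1, and Pde3b, Pde4a and Pde1a were the genes that lost their calls. Both means of Pde4b and of Pde1a and the wildtype mean of Pde4a lay within the background range. Pde4c, with both means in that range, differed by -0.19 without being called (limma adjusted p = 0.136), and its groups did not overlap.

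Genes known to be induced by cyclic AMP and its transcription factor CREB went apart. Of 20 measured, 6 were higher, 3 lower and 11 not called, with a median of 0.01. Pde4b is counted in this list and in the phosphodiesterase list, Crem also in the G protein and protein kinase A list, and Pcsk1 also in the peptide processing list. The orphan nuclear receptor gene Nr4a2 had values of 9.16, 9.34 and 9.36 in knockout, against 7.74, 7.78 and 7.65 in wildtype, a log2 difference of 1.56 (SE 0.07, limma adjusted p = 6.95e-05). Its paralog Nr4a1 was higher by 0.72 (SE 0.08, limma adjusted p = 0.00206) and the immediate early gene Fos by 0.64 (SE 0.05, limma adjusted p = 0.000756). The wildtype means of Nr4a2 and Fos lay within the background range.

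The targets that were lower included the mitochondrial coactivator gene Ppargc1a, with values of 9.66, 9.76 and 9.93 in knockout, against 11.23, 11.36 and 11.34 in wildtype. Its log2 difference was -1.53 (SE 0.08, limma adjusted p = 0.000122). Stc1, the gene of the secreted glycoprotein stanniocalcin, differed by -1.06 (SE 0.06, limma adjusted p = 2e-04), with both means within the background range. The third gene that was lower, the kinase gene Sik1, is a CREB target that feeds back on CREB coactivators and differed by -0.57 (limma adjusted p = 0.00104); it was named after its value was seen. Many genes of this list answer to other signals too.

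Of 7 genes of receptor desensitisation, 1 was higher and 0 lower, with a median of 0.03. Grk5, a G protein-coupled receptor kinase, was higher by 0.68 (SE 0.09, limma adjusted p = 0.00375), and Gprasp2 differed by -0.17 (limma adjusted p = 0.118).

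Other vasoactive peptide systems were read beside them. Of 29 genes 4 were higher and 5 lower, with a median of 0.01, and 24 had both means within the background range. The count was 4 without knockout replicate 2. Tacr1, the substance P receptor gene, was higher by 1.00 (SE 0.16, limma adjusted p = 0.00895), with the wildtype mean within the background range. The natriuretic peptide system moved both ways. Npr2, the receptor of C-type natriuretic peptide, averaged 10.15 ± 0.17 in knockout and 9.39 ± 0.11 in wildtype (difference 0.76, limma adjusted p = 0.00422). The clearance receptor gene Npr3 averaged 11.96 ± 0.13 in knockout and 12.75 ± 0.04 in wildtype (difference -0.79, limma adjusted p = 0.00107). Nppc, which encodes C-type natriuretic peptide, differed by -0.65 (limma adjusted p = 4e-04) and Nppb, which encodes B-type natriuretic peptide, by 0.40 (limma adjusted p = 0.0134, lost without knockout replicate 1 or 2 or wildtype replicate 2). The knockout mean of Nppc and both means of Nppb lay within the background range.

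Since Adm responds to hypoxia, 20 other targets of hypoxia-inducible factors were set beside it. Of these 6 were higher and 0 lower, with a median of 0.13, and the count was 3 without wildtype replicate 3. Only 5 of the 20 had both means within the background range, so the share called over all genes is not matched to this list in signal. Ndrg1 was higher by 1.06 (limma adjusted p = 0.000381), the vascular growth factor gene Vegfa by 0.55 (limma adjusted p = 0.00196) and the glucose transporter gene Slc2a1 by 0.43 (limma adjusted p = 0.00496). Bnip3 and Ero1a were higher by 0.46 and 0.37 (limma adjusted p = 0.0138 and 0.0237), and both calls were lost when some single arrays were left out. Car9, the carbonic anhydrase gene often read as a hypoxia marker, differed by 0.04 (limma adjusted p = 0.894) with both means within the background range.

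**Figure D3:**
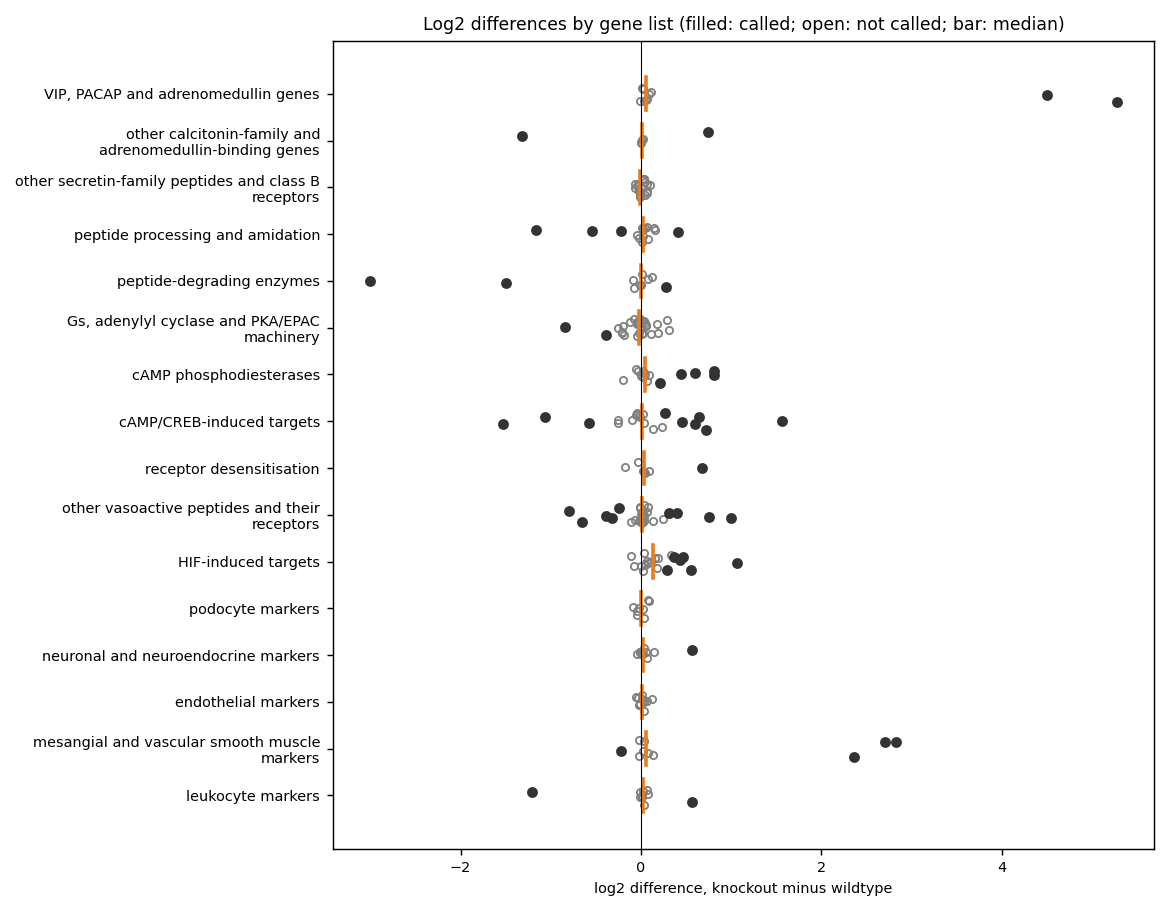
Log2 difference, knockout minus wildtype (horizontal axis), for each gene of the 10 members (top row) and of 15 other lists; filled points were called at adjusted p under 0.05, open points were not, and the orange bar is the list median. Every list median lies between -0.02 and 0.13, while Vip and Adm lie at 5.28 and 4.50.

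Marker lists of cells that make or answer these peptides were read in the same fit. Of 11 neuronal and neuroendocrine markers, 10 had both means within the background range and 1 was called, with a median of 0.03. That was Tubb3, the neuronal tubulin gene, higher by 0.56 (limma adjusted p = 0.00146), while Uchl1 differed by 0.14 (limma adjusted p = 0.347). The wildtype mean of Tubb3 was within the background range. The mean level over this list was 6.80 to 6.83 on the knockout arrays and 6.63 to 6.84 on the wildtype arrays. All 11 endothelial markers had both means within the background range, and by limma none was called (1 at an unadjusted p under 0.05), with a median of 0.02. Their mean level was 6.48 to 6.51 on the knockout arrays and 6.37 to 6.57 on the wildtype arrays, and the endothelial receptor genes Flt1 and Kdr differed by 0.12 and 0.07.

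Of 10 mesangial and vascular smooth muscle markers, 3 were higher and 1 lower, with a median of 0.05. Acta2, Tagln and Pdgfrb were higher by 2.83, 2.70 and 2.36 (limma adjusted p = 2.38e-05, 0.000215 and 2.66e-05), and Mcam differed by -0.22 (limma adjusted p = 0.0174, lost without 4 of the 6 arrays in turn and with the replicate block, where it was 0.0625). The wildtype mean of Pdgfrb and both means of Mcam lay within the background range. Myh11, Des, Rgs5, Cspg4, Itga8 and Notch3 stayed in the background range in knockout and wildtype alike. The mean level over this list was 8.18 to 8.27 on the knockout arrays and 7.36 to 7.47 on the wildtype arrays. That mean followed Acta2, Tagln and Pdgfrb, while the list median was 0.05 and 6 of the 10 were not called. The part of these 3 genes in the values of Vip and Adm was not tested. Of 10 leukocyte markers, 1 was higher and 1 lower, with a median of 0.02. Cd68 was higher by 0.57 (limma adjusted p = 0.0471, lost without any 1 of 5 arrays) and Csf1r differed by -1.21 (limma adjusted p = 0.000319), while Ptprc and 7 others lay within the background range. Their mean level was 6.39 to 6.44 on the knockout arrays and 6.37 to 6.53 on the wildtype arrays.

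The 4 nearest measured protein-coding genes on each side of Vip and of Adm were read next, to see whether the difference extended along the chromosome. Around Vip 1 of 8 was called, where 12.0% of all genes were, and the log2 differences ran from -0.23 to 1.00. That gene was Myct1, the direct neighbour on the lower-coordinate side, higher by 1.00 (SE 0.15, limma adjusted p = 0.00827) with both means within the background range. On the other side Fbxo5, a cell cycle inhibitor gene, differed by -0.05 (limma adjusted p = 0.83) while lying above that range. Of the others, Syne1 was called when the median of its probe sets was taken (0.32, limma adjusted p = 0.0142) and Esr1 after a repeated quantile normalization (0.19, limma adjusted p = 0.0482).

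Around Adm 2 of 8 were called higher. Ampd3, an AMP deaminase gene and the direct neighbour, had values of 9.63, 9.62 and 9.69 in knockout, against 8.03, 8.08 and 7.88 in wildtype, a log2 difference of 1.65 (SE 0.06, limma adjusted p = 3.56e-05). Swap70, the second gene on the other side, averaged 9.56 ± 0.06 in knockout and 7.94 ± 0.28 in wildtype, a difference of 1.62 (limma adjusted p = 0.000777). Sbf2, which lies between Swap70 and Adm, differed by -0.08 (limma adjusted p = 0.51), and Rnf141, beyond Ampd3, by 0.01 (limma adjusted p = 0.973), though Rnf141 was called when the median of its probe sets was taken (0.29, limma adjusted p = 0.0344). Sbf2 and Rnf141 were both measured above background.

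**Figure D4:**
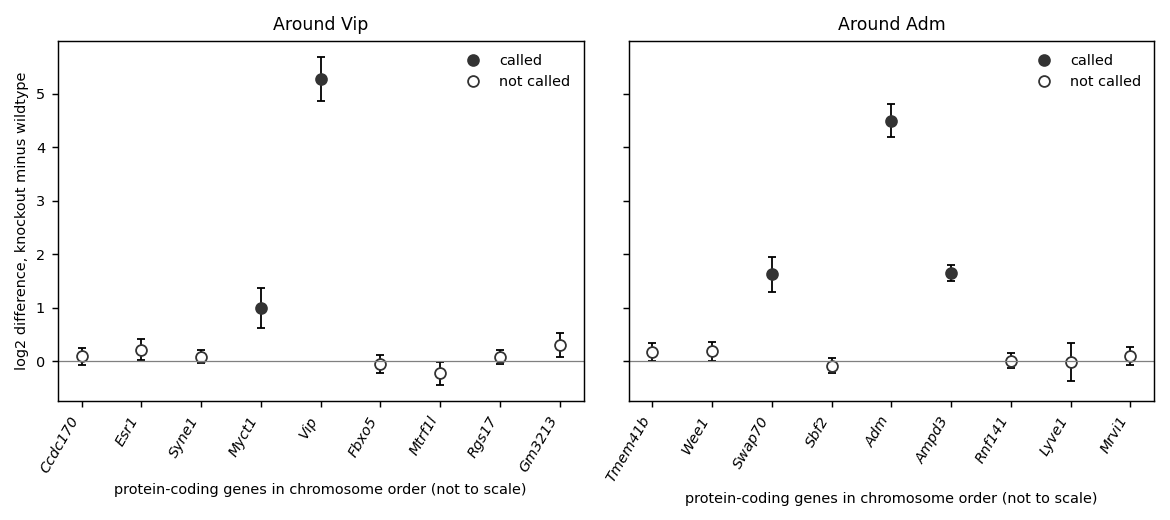
Log2 difference, knockout minus wildtype (vertical axis), with its 95% interval, for Vip, Adm and the 4 nearest measured protein-coding genes on each side in chromosome order; filled points were called. Myct1 at 1.00 beside Vip, and Swap70 at 1.62 and Ampd3 at 1.65 near Adm, are the called neighbours.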

How the data were processed

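Per the labels' protocols, Trizol-extracted total RNA was converted to biotin-labelled cDNA and hybridized to Affymetrix arrays. What the authors deposited are log2 intensities, 1 per probe set and array. The submitters' processing notes name affy 1.44.0 and RMA. RMA normalizes arrays by quantiles and fits each probe set over arrays, so arrays can share a fitted value. Probe background compresses changes of dim genes. The sources used here give neither filters nor the probe definition.

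Of 72688 probe sets, 31258 named 1 gene in the platform annotation, 1492 named several and were not used, and 39752 others had no symbol beside 186 controls. The annotation's symbols were updated through a GRCm38.p6 gene table, used otherwise for names and gene order. The probe set with the highest mean was kept per gene, giving 30702 genes. The lines were compared, knockout minus wildtype, by limma 3.58.1 (R 4.3.3; lmFit, eBayes, two-sided, no covariate, no filter), with Benjamini-Hochberg adjustment over all genes, called under 0.05. The members and lists were chosen with earlier results of these data known. Named genes were all members and, per list, up to 5 called genes with the largest differences, or the 2 largest differences where fewer than 2 were called. The genes beside Vip and Adm, the promoter motifs and other list genes were chosen after values were seen. On simulated data with 200 of 30702 genes changed, this fit recovered 50.7% of genes changed by 0.5, 80.6% changed by 1 and 100% changed by 2 on the log2 scale, with 9 false calls. The simulated noise was normal and independent, without shared fitted values, and fewer genes were changed than were called here. These figures therefore do not give the error rate on these arrays. Promoters came from RefSeq, GRCm38.p6. Figures used matplotlib 3.10.9. The number of arrays limits the precision.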

Additional observations from a re-analysis of the deposited data

How the results depend on the processing

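Across 13 alternative settings the log2 difference of Vip ran from 5.15 to 5.48 and that of Adm from 4.36 to 4.58. Leaving out 1 array at a time gave those same ranges. The count of called genes, 3669, was between 2079 and 3388 with 1 array left out, 2079 without wildtype replicate 3. With the replicate block it was 3765, and the log2 differences of Vip and Adm stayed at 5.28 and 4.50. Deviations of same-numbered arrays correlated at 0.35, 0.28 and 0.04. As the last was near 0 and no label ties the numbers together, they were not taken to pair the samples, although 5 of the 6 arrays correlated best with their own number, a hint of pairing from the data. With the block Cpe, Cpm, Mcam and Pde1a lost their calls.

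With 1 array left out, list counts ran from 1 to 2 for the calcitonin-family genes, 2 to 4 for the G protein and protein kinase A genes, 2 to 5 for phosphodiesterases, 4 to 7 for vasoactive peptides, 3 to 5 for hypoxia targets and 1 to 2 for leukocyte markers. The filter on dim genes left 1 call among the calcitonin-family genes, where 2 genes remained, and gave 5 among the G protein genes. A repeated quantile normalization gave 6 there and 2 for receptor desensitisation. The causes of these changes in the counts were not tested. Of 45 named or neighbouring genes called, 34 kept the call in every setting that included them. Taking off chromosome medians moved Ramp3 to 0.09. Signal near background limits what can be read of the receptors.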
